A study of Rattus norvegicus with 3 samples.

Results

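The 10 genes described here are known markers of reactive gliosis and of the response to the transcription factor STAT3: A2m, Stat3, Socs3, Lcn2, Serpina3n, Osmr, Edn2, Cebpd, Timp1 and Cd44. They were chosen by name, with earlier results of these data known, and all 10 are among the 18425 genes of the expression table. Retinas of wild-type rats (Sprague-Dawley by the study's methods) were collected at P4, after 1 µl of citrate buffer, saline or streptozotocin (STZ, 10 µg, prepared in the same buffer) had been injected into the vitreous at P1. STZ is a sugar-linked nitrosourea that alkylates DNA and is otherwise used to destroy insulin-secreting cells. RNA was sequenced in 1 library per condition, called Buffer, Saline and STZ below, and the study set out to learn how STZ acts directly on the newborn retina. The sources used here do not say how many animals or eyes went into a library. In the intravitreal work of the study, each animal received STZ in its right eye and buffer in its left. With 1 library per condition, no difference below has a replicate check and no p-value was computed. The difference between Saline and Buffer is the only one that does not involve STZ, and it is given for each of the 10 genes.

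Retinal injury activates the resident glia, the Müller cells that span the retina and the astrocytes. Reactive glia classically make more intermediate filament protein (GFAP, vimentin), secrete acute phase and matrix proteins, and expose the hyaluronan receptor CD44. Much of this program runs through cytokines of the interleukin-6 family. These bind receptors that signal through Il6st and the Janus kinases, which phosphorylate STAT3. STAT3 then switches on target genes, among them its own gene and that of its inhibitor SOCS3. In the injured rodent retina, photoreceptors are a known source of endothelin 2 (Edn2) and Müller cells of the cytokine LIF. Müller cells are among the last retinal cells to be born, so a retina at P4 holds few mature ones.

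Depth was nearly equal, with a total of 21992701 estimated reads for Buffer, 21977846 for Saline and 22031241 for STZ. Marker genes of retinal cells summed to 49670, 47986 and 51657 counts, and none of the 10 was at 0. The libraries nevertheless stood apart in markers of other cells. Saline held 12512 counts of ciliary and iris epithelium markers, against 6243 in Buffer and 5544 in STZ, and 2040 counts of pigment epithelium markers, against 964 and 980. STZ held 2550 counts of lens markers, against 232 in Buffer and 540 in Saline, and 3340 counts of microglia and macrophage markers, against 1294 and 1550. Most of the lens marker counts in STZ were of crystallin genes. In whole retina, fewer cells of a type and less RNA per cell cannot be told apart.

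A pair of quantities is given for each gene. The fold change is (FPKM + 1)/(FPKM + 1), where FPKM is the number of fragments relative to transcript length and library size, and the study's thresholds are 1.54 for a higher and 0.65 for a lower level. The count ratio divides the share of reads that a gene takes in one library by its share in the other, and is followed by its exact 95% counting interval in parentheses. Reads were not marked with molecular identifiers and so do not count independent molecules, and the interval covers counting error only.

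A2m, Stat3, Edn2, Cebpd and Timp1 passed the upper threshold in STZ against Buffer (5 of 10, beside 2.25% of all genes), and 0 passed the lower one (1.04% of all genes). Against Saline, the other control, 2 of them remained above the upper threshold, A2m and Edn2 (2.04% of all genes), and 0 members were below the lower one (1.75%). These 2 were therefore the members that passed against both controls (1.39% of all genes were higher and 0.630% lower against both). Saline itself differed from Buffer in 1 member, Serpina3n, which was higher (1.00% of all genes). No member was below the lower threshold in that comparison (0 of 10, beside 0.429%). All 10 members had a mean of at least 10 counts, and among the 14885 genes counted that deeply 2.58% were higher in STZ against Buffer. The median log2 fold change over the members was 0.56 for STZ over Buffer, 0.09 for STZ over Saline and 0.21 for Saline over Buffer. Over all 14885 of those genes it was 0.03, 0.01 and 0.02. The comparisons of STZ with its controls share the STZ library. Because the members were chosen with earlier results of these data known, the shares of all genes are a background only and not a test of enrichment.

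**Figure D1:**
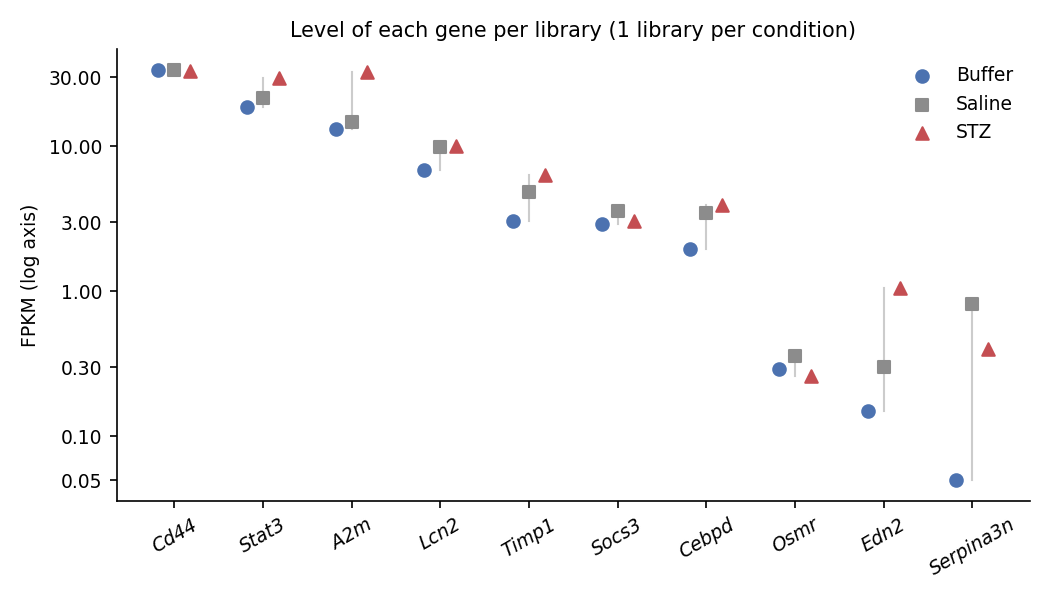
Levels of the 10 genes in FPKM (vertical log axis) in the Buffer (circles), Saline (squares) and STZ (triangles) libraries, 1 library per condition, ordered by the level in Buffer. The STZ points of A2m (32.7 FPKM) and Stat3 (29.5 FPKM) lie above both controls, the points of Cd44 coincide, and Serpina3n is highest in Saline.

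By level, measured per length in FPKM, Cd44 was the highest of the 10 in every library. Stat3 and A2m came next, in that order in Buffer and Saline and in the opposite order in STZ. Lcn2 and Timp1 followed in all 3 libraries. Socs3 stood above Cebpd in Buffer and Saline and below it in STZ, and Osmr, Edn2 and Serpina3n were the lowest. Together the 10 genes took 6230 counts in Buffer (0.0283% of the library), 6804 in Saline (0.0310%) and 9212 in STZ (0.0418%). Without A2m the sums were 4973, 5389 and 6082 counts, which keep the order of the libraries with a smaller distance.

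Edn2 (NCBI gene 24324) encodes endothelin 2, a small secreted peptide that signals through the endothelin receptors. It had 4 counts in Buffer, 9 in Saline and 28 in STZ, or 0.15, 0.30 and 1.06 FPKM. STZ was above both controls, and all 3 values were low. The folds were 1.79 to Buffer and 1.58 to Saline, only just past the upper threshold in the second case. The count ratio was 6.99 (2.44–27.4) against Buffer and 3.10 (1.42–7.48) against Saline. Saline against Buffer gave 2.25 with an interval of 0.628–10.0, so at this depth the controls could not be told apart.

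Osmr (NCBI gene 310132) encodes the receptor chain through which oncostatin M activates STAT3. It had 36, 33 and 28 counts in Buffer, Saline and STZ, and its level was 0.29, 0.36 and 0.26 FPKM. STZ was the lowest by both quantities, while the highest library was Buffer by counts and Saline by FPKM. No difference was detectable at this depth, since the count ratio of STZ was 0.776 (0.456–1.31) to Buffer and 0.846 (0.493–1.44) to Saline. Saline against Buffer was at a fold of 1.05 and a count ratio of 0.917 (0.554–1.51). An increase in STZ of more than 1.31 times Buffer lies outside that counting interval.

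Stat3 (NCBI gene 25125), the transcription factor itself, had 1730 counts in Buffer, 1983 in Saline and 2731 in STZ. Its levels were 18.7, 21.5 and 29.5 FPKM, above 68.7%, 71.5% and 78.7% of all genes. STZ was highest and Saline stood between. The fold change against Buffer was 1.55, barely past the threshold of 1.54, and against Saline it was 1.36, which did not pass. Scaling the libraries by TMM or median-of-ratios factors took Stat3 back below the threshold, at a lowest fold of 1.50. The count ratios were 1.58 (1.48–1.67) against Buffer and 1.37 (1.30–1.46) against Saline, both larger than the 1.15 (1.07–1.22) between the controls.

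Socs3 (NCBI gene 89829) encodes the inhibitor that binds the receptor complex and ends STAT3 signaling. It had 149 counts in Buffer, 183 in Saline and 157 in STZ, or 2.93, 3.60 and 3.08 FPKM. The STZ value lay between those of the controls. The folds were 1.04 to Buffer and 0.887 to Saline, and the count ratios of 1.05 (0.835–1.33) and 0.856 (0.687–1.07) include 1. Between the controls the fold was 1.17 and the count ratio 1.23 (0.985–1.54). No difference in Socs3 was therefore detectable, and a ratio to Buffer above 1.33 lies outside the counting interval.

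Cebpd (NCBI gene 25695) encodes C/EBPδ, a transcription factor that acts with STAT3 on acute phase genes. It had 39, 69 and 79 counts, and levels of 1.95 FPKM in Buffer, 3.46 in Saline and 3.95 in STZ. Buffer was low and the other libraries were close together. The fold change of 1.68 in STZ against Buffer passed the threshold, and those of 1.11 over Saline and 1.51 between the controls did not. In counts, STZ was 2.02 (1.36–3.05) times Buffer and 1.14 (0.816–1.60) times Saline, and Saline was 1.77 (1.18–2.69) times Buffer.

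A2m (NCBI gene 24153) encodes α2-macroglobulin, a secreted protease trap and a classical STAT3-driven acute phase protein of the rat. The libraries held 1257 counts (Buffer), 1415 (Saline) and 3130 (STZ), and the levels were 13.2, 14.8 and 32.7 FPKM. STZ lay far above both controls, which were close to each other. A2m stood above 60.6% of all genes in Buffer and above 80.8% in STZ. STZ was at a fold of 2.38 to Buffer and 2.13 to Saline. Among the 14885 genes that averaged 10 or more counts, these folds put A2m at rank 94 and rank 99 from the top. The count ratios were 2.49 (2.33–2.66) and 2.21 (2.07–2.35), beside 1.13 (1.04–1.22) between the controls. A2m is the one member with fractional counts, as 2858 genes had, so its count is an estimate and not a whole number of reads.

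Lcn2 (NCBI gene 170496) encodes lipocalin 2, a secreted carrier of iron-binding siderophores. It had 98 counts in Buffer, 139 in Saline and 143 in STZ, or 6.93, 9.86 and 10.1 FPKM. STZ and Saline were nearly equal and Buffer was lower. No fold change passed a threshold, at 1.40 for STZ over Buffer, 1.02 for STZ over Saline and 1.37 for Saline over Buffer. The count ratio of STZ was 1.46 (1.12–1.90) to Buffer and 1.03 (0.807–1.31) to Saline.

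Serpina3n (NCBI gene 24795) encodes a secreted inhibitor of serine proteases that is among the best-known reactive astrocyte genes. It had 2 counts in Buffer, 33 in Saline and 16 in STZ, or 0.05, 0.82 and 0.40 FPKM. Here Saline was the highest library and STZ lay between the controls. The fold change was 1.73 for Saline over Buffer, 1.33 for STZ over Buffer and 0.769 for STZ over Saline. The count ratio of STZ to Saline was 0.484 (0.249–0.904). Ratios to the 2 counts of Buffer were very uncertain, 7.99 (1.88–71.6) for STZ and 16.5 (4.22–142) for Saline.

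Timp1 (NCBI gene 116510) encodes a secreted inhibitor of matrix metalloproteinases. It had 38 counts in Buffer, 63 in Saline and 81 in STZ, or 3.04, 4.89 and 6.39 FPKM. STZ was highest and Saline stood between. The fold change was 1.83 against Buffer, which passed, and 1.25 against Saline, which did not, with 1.46 between the controls. The count ratios were 2.13 (1.43–3.22) to Buffer and 1.28 (0.911–1.81) to Saline, and Saline was 1.66 (1.09–2.55) times Buffer.

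Cd44 (NCBI gene 25406), the hyaluronan receptor that Müller cells carry on their apical processes, had 2877 counts in Buffer, 2877 in Saline and 2819 in STZ. These are 33.8, 33.8 and 33.1 FPKM, and the libraries were almost alike. Cd44 was the most deeply counted member in Buffer, and its count ratios were the most precise of the 10. The ratio was 0.978 (0.928–1.03) to Buffer and 0.977 (0.928–1.03) to Saline, beside 1.00 (0.950–1.05) between the controls. A difference beyond these bounds lies outside counting error, but the spread between animals is unknown.

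By counting interval alone, 7 members were higher in STZ than in Buffer, beside 21.7% of all genes: A2m, Stat3, Lcn2, Serpina3n, Edn2, Cebpd and Timp1. Only A2m, Stat3 and Edn2 had an interval above 1 against Saline (3 of 10, beside 22.1% of all genes), and the same 3 against both controls (15.8% of all genes). Serpina3n was below Saline (1 of 10, beside 19.5%). Saline itself was above Buffer in 6 members, A2m, Stat3, Lcn2, Serpina3n, Cebpd and Timp1, beside 13.3% of all genes.

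**Figure D2:**
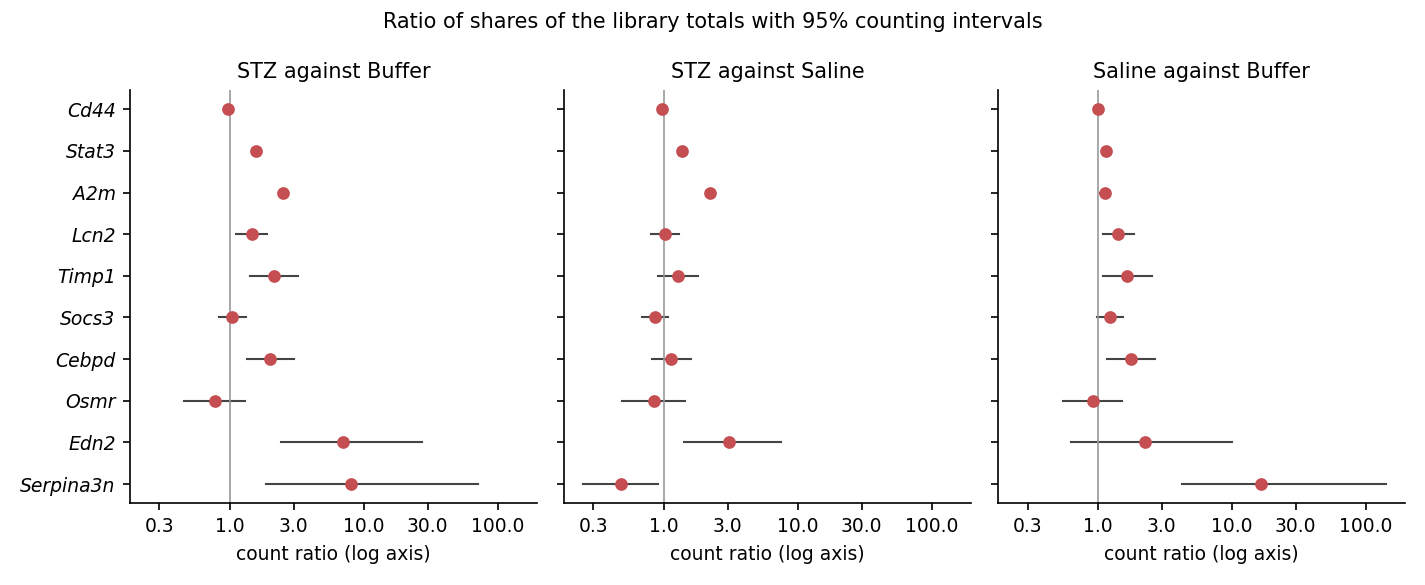
Count ratios of the 10 genes (horizontal log axis, share of reads in one library over that in the other) with exact 95% counting intervals as bars, in 1 panel per comparison. In STZ against Saline the intervals of A2m, Stat3 and Edn2 lie above 1 and that of Serpina3n below 1, and in Saline against Buffer 6 of the 10 lie above 1.

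The members thus fell into patterns that a comparison with Buffer alone does not separate. In A2m, Stat3 and Edn2, STZ was above Saline as well as Buffer. In Lcn2, Cebpd and Timp1, both Saline and STZ were above Buffer by the counting interval and the interval of STZ against Saline included 1. This second pattern was described after its values had been seen. It held for 3 of the 10 members, for 2.37% of all genes and for 7 of the 113 pathway and gliosis genes listed below (6.19%), namely Cd14, Cp, Il4r, Il6r, Junb, Slc22a17 and Timp2. Socs3, Osmr and Cd44 had intervals that included 1 against both controls. Serpina3n was alone in being above Buffer and below Saline in STZ. Saline, the library with the second pattern's values near those of STZ, is also the one with about double the ciliary and pigment epithelium marker counts, at ratios to Buffer of 2.01 (1.95–2.07) and 2.12 (1.96–2.29), or 3.63 (3.47–3.80) and 1.55 (1.41–1.70) without the most abundant gene of each list. In STZ the ratios of these sums to Buffer were 0.886 (0.855–0.919) for ciliary and 1.01 (0.928–1.11) for pigment epithelium markers. The part of these markers in the members' values was not tested.

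Promoters of the members were read for the letters of the STAT, C/EBP and AP-1 motifs, since these factors act on acute phase genes. RefSeq promoters of the GRCr8 assembly, from 250 bases before to 50 bases after the gene start, were on hand for 8 members, and not for A2m and Cebpd. The STAT motif TTCNNNGAA, searched on both strands, was in 1 of the 8, Serpina3n, and in 8.87% of 33469 promoters. The C/EBP motif TTGCNNAA was in 1, Lcn2 (10.6% of promoters). The pattern TGANTCA, a loose form of the AP-1 motif, was in 1, Osmr (7.33% of promoters). It allows any middle base, where the AP-1 consensus has C or G. The Osmr match has T there, so it is not a consensus AP-1 site. No match overlapped another. The matches are shown with 25 bases on each side, motif letters in capitals, because they lie in genes of different behavior: Serpina3n, highest in Saline, Lcn2, equal in Saline and STZ, and Osmr, with no detectable difference. They begin 123, 191 and 33 bases before the gene start, at chr6:129088244-129088302 on the plus strand, chr3:36081939-36081996 on the minus strand and chr2:57688563-57688619 on the minus strand.
Serpina3n: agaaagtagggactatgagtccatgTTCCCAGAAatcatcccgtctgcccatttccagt
Lcn2: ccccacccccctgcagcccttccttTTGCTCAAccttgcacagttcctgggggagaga
Osmr: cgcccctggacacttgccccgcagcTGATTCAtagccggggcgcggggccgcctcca
Stat3, Socs3, Edn2, Timp1 and Cd44 had none of these letters in the window. A match is only a description of the sequence, and its absence says nothing about binding elsewhere.

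The surroundings of the members in the pathway were read from 13 lists with 113 genes in the table. Of these 113, 10 were higher and 0 lower in STZ against Buffer, 9 higher and 3 lower against Saline, and 1 higher (Hspb1) and 1 lower (Spp1) in Saline against Buffer. The shares over all genes given above are the background for these counts, and the lists, too, were chosen with earlier results of these data known. Against both controls, 8 were higher, among them Lif, Ptpn6, Fos, Hp, Mmp2, Gbp2 and Psmb8, and 0 lower. The median log2 fold change over the lists was 0.04, -0.01 and 0.05 in the 3 comparisons, close to that of all genes.

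**Figure D3:**
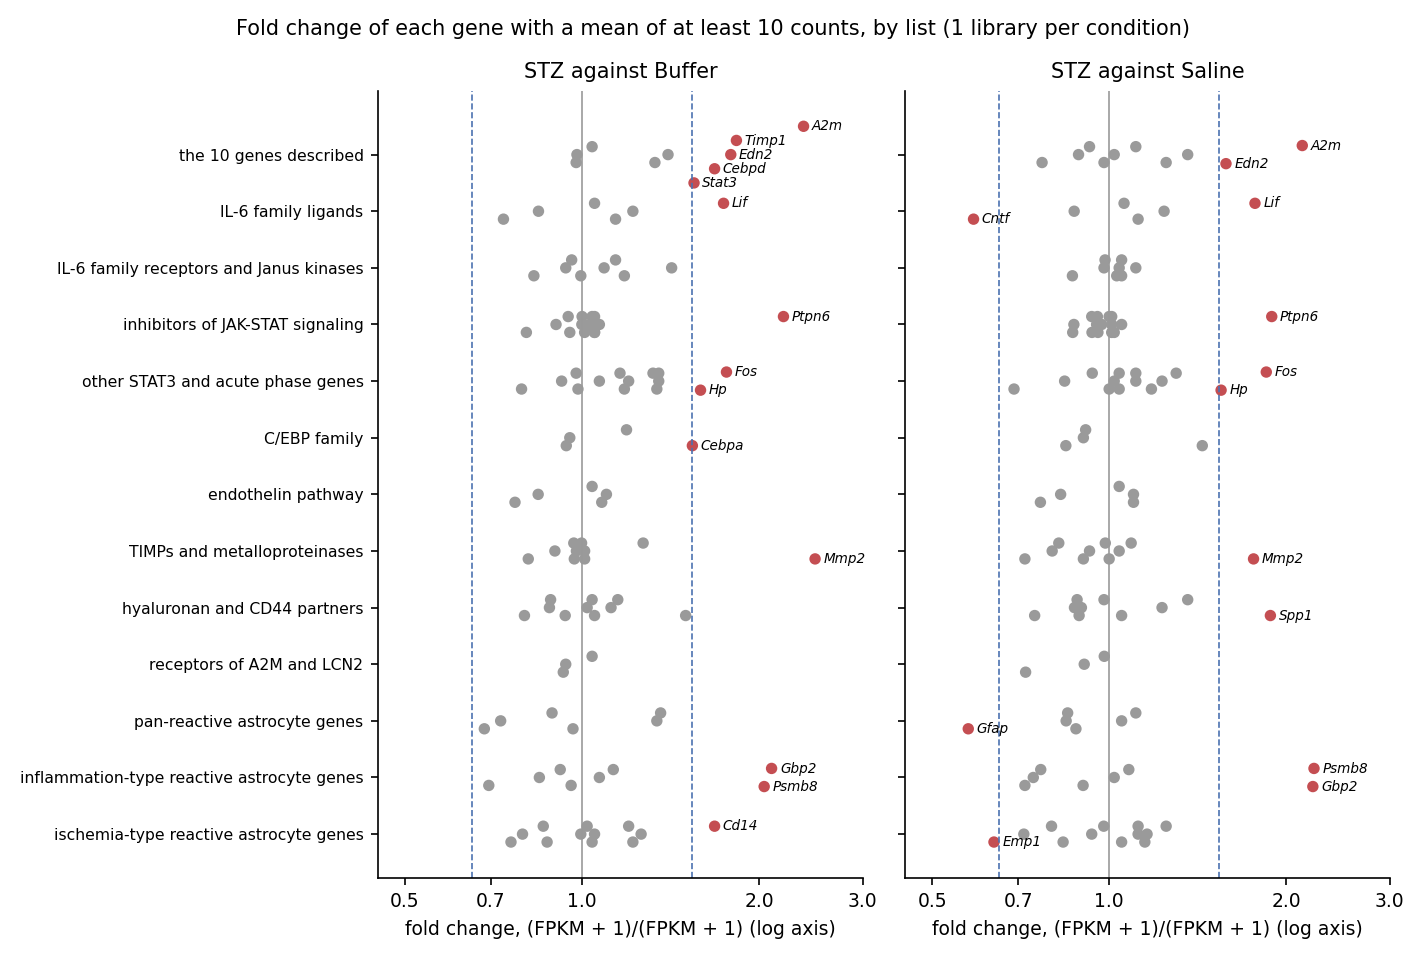
Fold change (horizontal log axis, (FPKM + 1)/(FPKM + 1)) of the 10 genes and of the genes of 12 pathway and gliosis lists with 10 or more counts on average, by list, in STZ against Buffer and STZ against Saline, with 1 library per condition. Dashed lines mark the thresholds 0.65 and 1.54, and named points in red passed one: most genes lie near 1, 7 list genes are higher in both panels, and Gfap is lower against Saline.

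Among the ligands of the interleukin-6 family, 1 of 8 passed in STZ against Buffer. Lif, the injury cytokine of Müller cells, had 7 counts in Buffer, 3 in Saline and 39 in STZ. Its folds of 1.74 over Buffer and 1.77 over Saline passed, and its count ratios were 5.56 (2.46–14.7) and 13.0 (4.12–65.6). Il6 was at 0, 1 and 0 counts and Osm, the ligand of Osmr, at 1, 1 and 6. Cntf, a survival factor that also activates STAT3, was lower in STZ, with 159 counts in Buffer, 203 in Saline and 112 in STZ, and passed the lower threshold against Saline (fold 0.588) but not against Buffer (0.735).

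None of the 8 receptors and Janus kinases passed a threshold in any comparison. Il6st, the signaling chain that these receptors share, had 3196, 3460 and 3661 counts, and STZ stood at a fold of 1.14 to Buffer and 1.05 to Saline. Lifr, the LIF receptor, was at a fold of 0.828 and 0.866. The kinases Jak1 (1.09 and 1.11) and Jak2 (0.960 and 1.04) were near 1. Il6r, the interleukin-6 receptor, had 26, 87 and 77 counts, below 1 FPKM in each library, and folds of 1.42 and 0.984. In counts, STZ was 2.96 (1.87–4.81) times Buffer and 0.883 (0.641–1.21) times Saline. Saline was 3.35 (2.14–5.41) times Buffer.

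Among the 15 inhibitors of the pathway, Ptpn6, a phosphatase abundant in blood-derived cells, was the single one to pass, with 40, 53 and 138 counts and folds of 2.20 and 1.89. The other 14, the remaining SOCS and PIAS genes among them, lay between the thresholds in every comparison, like Socs3.

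Among the 15 other STAT3 and acute phase genes, 2 passed against both controls. Fos, an immediate early gene, had 84, 78 and 171 counts and folds of 1.76 and 1.85. Hp, which encodes the hemoglobin scavenger haptoglobin, had 81, 84 and 142 counts and folds of 1.59 and 1.55. In the C/EBP family, Cebpa passed against Buffer alone, with 32, 38 and 79 counts and a fold of 1.54, and Cebpb, at 30, 48 and 41 counts, had folds of 1.19 and 0.904.

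Of the genes that act with the other members, few passed. In the endothelin pathway 0 of 6 did, and Ednrb, the main endothelin receptor of glia, was at folds of 0.842 and 0.827 with 2122, 2141 and 1861 counts. Ednra, the other endothelin receptor, had 58, 59 and 22 counts, at 0.60, 0.61 and 0.23 FPKM. Its folds of 0.769 and 0.764 did not pass. In counts, STZ was 0.379 (0.221–0.628) times Buffer and 0.372 (0.217–0.616) times Saline, beside 1.02 (0.696–1.49) between the controls. Among 10 TIMPs and metalloproteinases, Mmp2, a gelatinase, was higher against both controls, at 243, 368 and 698 counts and folds of 2.49 and 1.76. Of the 10 hyaluronan and CD44 partners, Spp1, the CD44 ligand osteopontin, was higher against Saline (fold 1.88) and at 1.05 against Buffer, since Saline was low (203, 102 and 217 counts). The 3 receptors of A2M and LCN2 stayed between the thresholds.

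The intermediate filament genes Gfap, Vim and Nes were lower in STZ than in either control, while other gliosis genes were mixed. Of the 9 pan-reactive astrocyte genes, 0 passed the upper threshold in STZ against either control and 1 passed the lower one against Saline. Gfap had 338 counts in Buffer, 410 in Saline and 214 in STZ, and STZ was the lowest library. The fold change was 0.576 against Saline, past the lower threshold, and 0.682 against Buffer, which did not pass. The count ratios were 0.521 (0.439–0.616) to Saline and 0.632 (0.530–0.752) to Buffer. Vim had 4708, 4915 and 4190 counts and folds of 0.889 and 0.850. Nes had 4534, 3870 and 3265 counts and folds of 0.727 and 0.845. Its count ratios were 0.719 (0.687–0.752) to Buffer and 0.842 (0.803–0.882) to Saline. S1pr3 was at folds of 0.965 and 1.05. Above 1 against Buffer without passing were Hspb1 (fold 1.36), Cxcl10 (1.35, at 0, 1 and 7 counts), Cp (1.34), Steap4 (1.19) and Aspg (1.05), and against Saline their folds were 0.878, 1.29, 1.11, 1.11 and 1.11. By counting interval, Cp (160, 208 and 242 counts) and Steap4 (3, 8 and 16 counts) were above Buffer and not apart from Saline. Of the 8 inflammation-type genes in the table, Gbp2 and Psmb8 passed against both controls. Gbp2, an interferon-induced GTPase, had 27, 23 and 109 counts and folds of 2.10 and 2.22, and Psmb8, a subunit of the immunoproteasome, had 28, 24 and 77 counts and folds of 2.04 and 2.23. Ggta1 (1074, 1001 and 756 counts), Fbln5 (12, 17 and 2) and Fkbp5 (1745, 1772 and 1598) were below both controls by counting interval. Their count ratios were 0.703, 0.166 and 0.914 to Buffer and 0.753, 0.117 and 0.900 to Saline. Amigo2 was above Buffer by that measure, at 1.14 (1.03–1.26), and not apart from Saline. Of the 12 ischemia-type genes, Cd14, also a monocyte receptor, was higher against Buffer (fold 1.68) and Emp1 lower against Saline (0.637), and 0 passed against both. Cntf, Cebpa, Spp1, Cd14, Emp1, Hspb1, Cxcl10, Cp, Steap4, Aspg, Il6, Osm and the markers below were named after their values had been seen. The same holds for Il6r, Ednra, Nes, S1pr3, Ggta1, Fbln5, Fkbp5 and Amigo2.

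The members can be read beside the markers of the cells that could make them. Müller glia markers summed to 83781 counts in Buffer, 85223 in Saline and 75123 in STZ, a ratio of 0.895 (0.886–0.904) to Buffer, with none of the 12 at 0. A retina at P4 holds few mature Müller cells, so this sum cannot be read as Müller glia alone. The share of dividing retinal progenitor cells in it was not tested. That sum was mostly 1 gene, Dkk3, with 52915, 54670 and 42238 counts, and it turned round without it: the other 11 markers summed to 30866, 30553 and 32885 counts, a ratio of 1.06 (1.05–1.08) to Buffer and 1.07 (1.06–1.09) to Saline. Of the 12, 8 had a count ratio to Buffer below 1 and 4 above it, among them Crym (7368, 6880 and 9219 counts) and Apoe, which other cells also express (961, 1449 and 3305 counts). The rise of Apoe alone over Buffer was larger than that of the sum of the 11 markers. Over Saline it was smaller. The median log2 fold change over the 12 markers was -0.25 to Buffer and -0.24 to Saline. Most of the markers thus had a ratio to Buffer below 1, while the direction of the sum to Buffer rested on Dkk3 and Apoe. Astrocyte markers, Gfap among them, summed to 1593, 1645 and 1097 counts, a ratio of 0.687 (0.636–0.743) to Buffer and 0.665 (0.616–0.719) to Saline. Of these 7, Pax2 (57, 53 and 10 counts), Pdgfra and S100b were lower against both controls, Aldh1l1 was at 0, 1 and 0 counts, and Slc1a2 went the other way, with 450, 459 and 542 counts and a ratio of 1.20 (1.06–1.37) to Buffer. Aqp4 had 28, 54 and 27 counts. Without Pdgfra, the most abundant of the list, the ratio of the sums was 0.877 (0.797–0.963) to Buffer and 0.776 (0.708–0.851) to Saline. The part of these differences in the values of Gfap and the members was not tested.

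**Figure D4:**
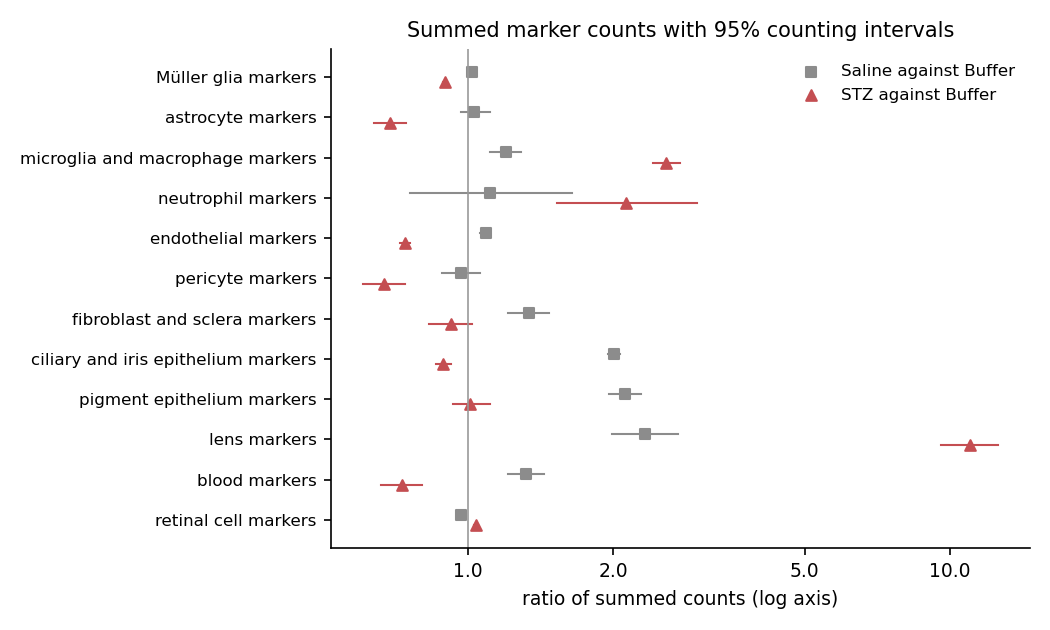
Summed counts of each cell type marker list as a ratio to Buffer (horizontal log axis) in Saline (squares) and STZ (triangles), with exact 95% counting intervals as bars and 1 library per condition. Microglia markers (2.58) and lens markers (11.0) are higher in STZ, astrocyte (0.687), endothelial (0.739) and pericyte (0.669) markers are lower in STZ, and ciliary (2.01) and pigment epithelium (2.12) markers are higher in Saline.

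Microglia and macrophage markers were higher in STZ, with a ratio of sums of 2.58 (2.42–2.75) to Buffer and 2.15 (2.02–2.28) to Saline, near the 2.49 and 2.21 of A2m. Of these 10, 7 passed the upper threshold against both controls, and none was at 0 in any library. Neutrophil markers summed to 54, 60 and 115 counts over the 6 genes in the table, a ratio of 2.13 (1.53–2.99) to Buffer and 1.91 (1.39–2.66) to Saline. Most of these counts were of Csf3r (36, 43 and 74) and Ngp (18, 9 and 32). Their ratios to Buffer in STZ were 2.05 (1.36–3.15) and 1.77 (0.967–3.36). S100a8, S100a9, Mpo and Cxcr2 were at 0 in Buffer and at no more than 5 counts in the other libraries. Lens markers were at 11.0 (9.59–12.6) times Buffer in STZ, mostly through the crystallins Cryaa, Crygd, Crygc and Cryba1, which passed against both controls. Mip (73, 73 and 86 counts), Bfsp1 (50, 105 and 90), Lim2 (1, 8 and 9) and Crybb2 (0, 3 and 6) had intervals against Saline that included 1. Endothelial markers were at 0.739 (0.721–0.758) times Buffer in STZ, a sum that Kdr dominated, and at 0.540 (0.490–0.594) without Kdr. Cdh5, Cldn5 and Tie1 passed the lower threshold against both controls, with count ratios to Buffer of 0.235, 0.196 and 0.247. Pericyte markers were at 0.669 (0.604–0.740), and at 0.378 (0.313–0.454) without Notch3, their most abundant gene. Fibroblast and sclera markers were at 0.919 (0.827–1.02) times Buffer and 0.687 (0.622–0.759) times Saline. Genes of that list went both ways, with Col1a2 at 0, 59 and 104 counts and Col3a1 at 83, 73 and 15. Blood markers were at 0.728 (0.660–0.803) times Buffer and 0.552 (0.503–0.605) times Saline. In Saline against Buffer the same ratios were 1.09 for endothelial, 0.966 for pericyte, 1.34 for fibroblast and sclera, 1.32 for blood, 2.33 for lens and 1.20 for microglia markers, and the endothelial one was 0.872 (0.801–0.948) without Kdr. Which of these cells carried the reads of A2m, Stat3, Edn2 and the other members was not tested.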

How the data were processed

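Per the study's methods, trimmed reads were mapped with TopHat2, multi-mapped ones were dropped, and FPKM came from an R script of the authors. The submitters' processing notes name FastQC, TopHat2 and the build rn6. Versions and annotation are not given in the sources used here. The authors deposited FPKM, TPM and an estimated read count per gene and library. Of the deposited estimated counts, 12.9% to 13.2% per library were fractional, and they were rounded to whole numbers.

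Fold changes used FPKM with a pseudocount of 1 and thresholds of 1.54 and 0.65, and list medians a minimum mean of 10 counts. Count ratios carry exact Clopper-Pearson intervals at the 95% level. No test was possible with 1 library per condition. The members and lists were chosen with earlier results of these data known. Named genes were all members, Gfap, Vim, Il6st, Lifr, Jak1, Jak2, Cebpb, Ednrb, list genes that passed against both controls, and markers. The rule was at most 3 markers per list, and more were named in some lists. Some list genes within the rule are not reported here. The settings varied were the pseudocount (0.1), the thresholds (2 and 0.5), TMM (edgeR 4.0.16) or median-of-ratios (DESeq2 1.42.0) factors in R 4.3.3, deposited TPM, CPM, filters on counts, the counting interval, the mean of both controls and a stricter STAT motif. Of 18425 identifiers, 17120 matched RefSeq (GRCr8), all 10 members included, and Mmp3 and Iigp1 had no row. Python 3.11.15, pandas 2.3.3 and scipy 1.17.1 were used, and the calculations were tested on simulated data.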

Additional observations from a re-analysis of the deposited data

How the results depend on the processing

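No paired analysis was possible because each condition has 1 library, and for the same reason no replicate was left out. A2m and Edn2 passed the upper threshold against both controls under every alternative applied to that call except thresholds of 2 and 0.5, which kept A2m. Of 180 recomputed folds of the members, 179 moved by less than their counting interval. The exception was Serpina3n in Saline against Buffer, at 16.5 as a count ratio and 1.73 as a fold. That bound is wide for genes with few counts, so the values of such genes were not stable. In STZ against Buffer, Edn2 ranged from 1.78 to 6.99 and Serpina3n from 1.33 to 7.99 within it. The cause of the changes below was not tested. Shares in parentheses are those of all genes under the same setting.

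With a pseudocount of 0.1, 1 member was lower in STZ against Saline (Serpina3n; 6.89%) and 4 were higher in Saline against Buffer (6.04%). Of the list genes, 20 were then higher (7.77%) and 5 lower (4.51%) in STZ against Buffer, 16 (6.87%) and 13 against Saline, 13 (4.39%) and 5 (2.60%) against both controls, and 10 were higher in Saline against Buffer. With thresholds of 2 and 0.5, 1 member was higher in STZ against Buffer (0.901%), 1 against Saline (0.706%), 1 against both (0.516%) and 0 in Saline against Buffer (0.391%). The list genes then gave 4 higher in STZ against Buffer, 2 higher and 0 lower (0.461%) against Saline, 2 higher against both, and 0 higher and 0 lower (0.152%) in Saline against Buffer. TMM and median-of-ratios factors each left 0 list genes higher in Saline against Buffer (0.977% and 0.988%), and took Stat3 out, leaving 4 members higher in STZ against Buffer (2.06% and 2.07%). With TPM, 2 members and 3 list genes were higher in Saline against Buffer (1.90%) and 6 list genes lower in STZ against Saline (2.78%). With CPM, 1 list gene was lower in STZ against Buffer (1.28%), 6 against Saline (2.56%) and 1 against both (0.858%), and 3 were higher in Saline against Buffer (1.44%). By the counting interval, 1 member was lower in STZ against Saline (19.5%) and 6 higher in Saline against Buffer (13.3%). The list genes then split into 33 higher (21.7%) and 21 lower (15.5%) in STZ against Buffer, 21 (22.1%) and 31 against Saline, 19 (15.8%) and 20 (2216 of the 18425 genes) against both, and 24 and 6 (9.81%) in Saline against Buffer. Against the mean of both controls, 2 members were higher in STZ (1.88%). With a minimum mean of 50 counts the list median in STZ against Saline was 0.003. The stricter STAT motif TTCCNGGAA was in 0 member promoters and 1.27% of all.

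Leaving out the most abundant gene of a marker list was chosen after the data were seen. It turned the direction of the Müller glia marker sums (1.06 to Buffer and 1.07 to Saline in STZ, 0.991 in Saline against Buffer) and of the endothelial sum in Saline against Buffer (0.872). In STZ against Buffer, the rise of Apoe alone was larger than that of the remaining Müller glia marker sum.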

Other observations

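Genes related to A2m in sequence were looked at after its values had been seen, because A2m had fractional counts. A2ml1 had 5 counts in Buffer, 18 in Saline and 0 in STZ. Mug1 and Pzp, close relatives of A2m, each had 0, 1 and 1 counts, and Cd109, a membrane relative, had 25, 24 and 31. None of the 4 held more than 31 counts in a library, against 3130 for A2m in STZ.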
